A study of Drosophila melanogaster with 10 samples.

Results

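Odorant-binding proteins are small secreted proteins, and 10 of their genes that are known from the antenna of Drosophila melanogaster were followed here in head RNA: lush, Obp28a, Obp44a, Obp83a, Obp83b, Obp84a, Obp99a, Obp99b, Obp99c and Obp99d. They were chosen by name, and each was taken from the probe sets annotated to that gene alone, whatever its signal. Of the 10 genes, 9 had 1 such probe set each, among 36 odorant-binding protein genes and 10844 genes in all with a probe set of their own. Obp83a was not analysed here. Transcript levels were compared between 2 strains, Fr and Z30, and 6 chromosome substitution lines made from them. Each parental strain was hybridised to 2 arrays. The lines, named MMZ, MZM, MZZ, ZMM, ZMZ and ZZM, were hybridised to 1 array each. The 3 letters of a line give the origin of its X, its second and the third chromosome, with Z for Z30 and M for Fr. Every sample was total RNA of 100 to 200 heads from females labelled nonvirgin, aged 3 to 5 days, and no label mentions removal of the antennae. No treatment, mutation or transgene is labelled. The labels leave out where the fourth chromosome and the mitochondria came from. Whether the pair of samples from a parent were separate cultures is not stated. The p-values between parents thus reflect only the spread between these samples, which may be technical. Those for a chromosome's origin also take in how far the lines depart from a sum of the separate chromosome effects.

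In the olfactory hairs (sensilla) of the antenna, support cells secrete odorant-binding proteins into the fluid that bathes the dendrites of the olfactory neurons. Hydrophobic odorants and pheromones are bound there, and the membrane receptors of the neurons, many of which work with the co-receptor Orco, are then activated. Antennae are a small part of the head, and several odorant-binding protein genes are also active in other head tissues, so head RNA holds both sources. In such bulk RNA, fewer cells of a type and less RNA per cell cannot be told apart.

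The members differ in what is known of them. The lush protein works in the trichoid sensilla that detect the male pheromone cis-vaccenyl acetate through the receptor Or67d. Obp83a and Obp83b, first described as OS-F and OS-E, are also made in trichoid sensilla, and Obp84a in coeloconic sensilla. Obp28a is an abundant protein of basiconic sensilla. Obp44a is also made by glia of the central nervous system. Obp99b was described under the name tsx as a gene of the head fat body with more transcript in males than in females. Obp28a lies on chromosome arm 2L, Obp44a on 2R, lush on 3L and the other members on 3R.

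A pair of arrays, Fr 1 and Z30 1, was unlike the other 8, across the strains. Their highest signals were 26039 and 28895, against 46285 to 59815 on the other arrays. The hybridisation controls on them averaged 651 and 538 (geometric mean of the signals), and 1500 to 2179 on the others. Their median rank correlations with the other arrays were 0.885 and 0.864, below the 0.905 of MZM and the 0.929 to 0.945 of the rest. No label names a batch: these arrays were grouped by their signals, and the group is called the array batch below. How far the group reflects handling or a difference between the flies was not tested. Each parent has 1 array in this group, so results are also given with the group as a block, and within each pair of parental arrays. No line has an array in the group.

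The 9 probe sets fell on both sides of the filter on low signals. Signals are intensity values scaled by the authors to a common level, and values under 38.9, the pooled 20th percentile, were treated as being at a floor. A test was run for probe sets whose mean on the log scale passed a filter, which lay at a signal of 122. Obp28a, Obp44a, Obp99a, Obp99b and Obp99c passed it and were above the floor on all 10 arrays. The mean signals of lush, Obp83b, Obp84a and Obp99d on the log scale were 44.7, 75.0, 43.3 and 44.4, so these 4 genes were described without a test. Signals of different probe sets are not compared with each other, since each has its own response, so a dim probe set does not show that its transcript was scarce.

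**Figure D1:**
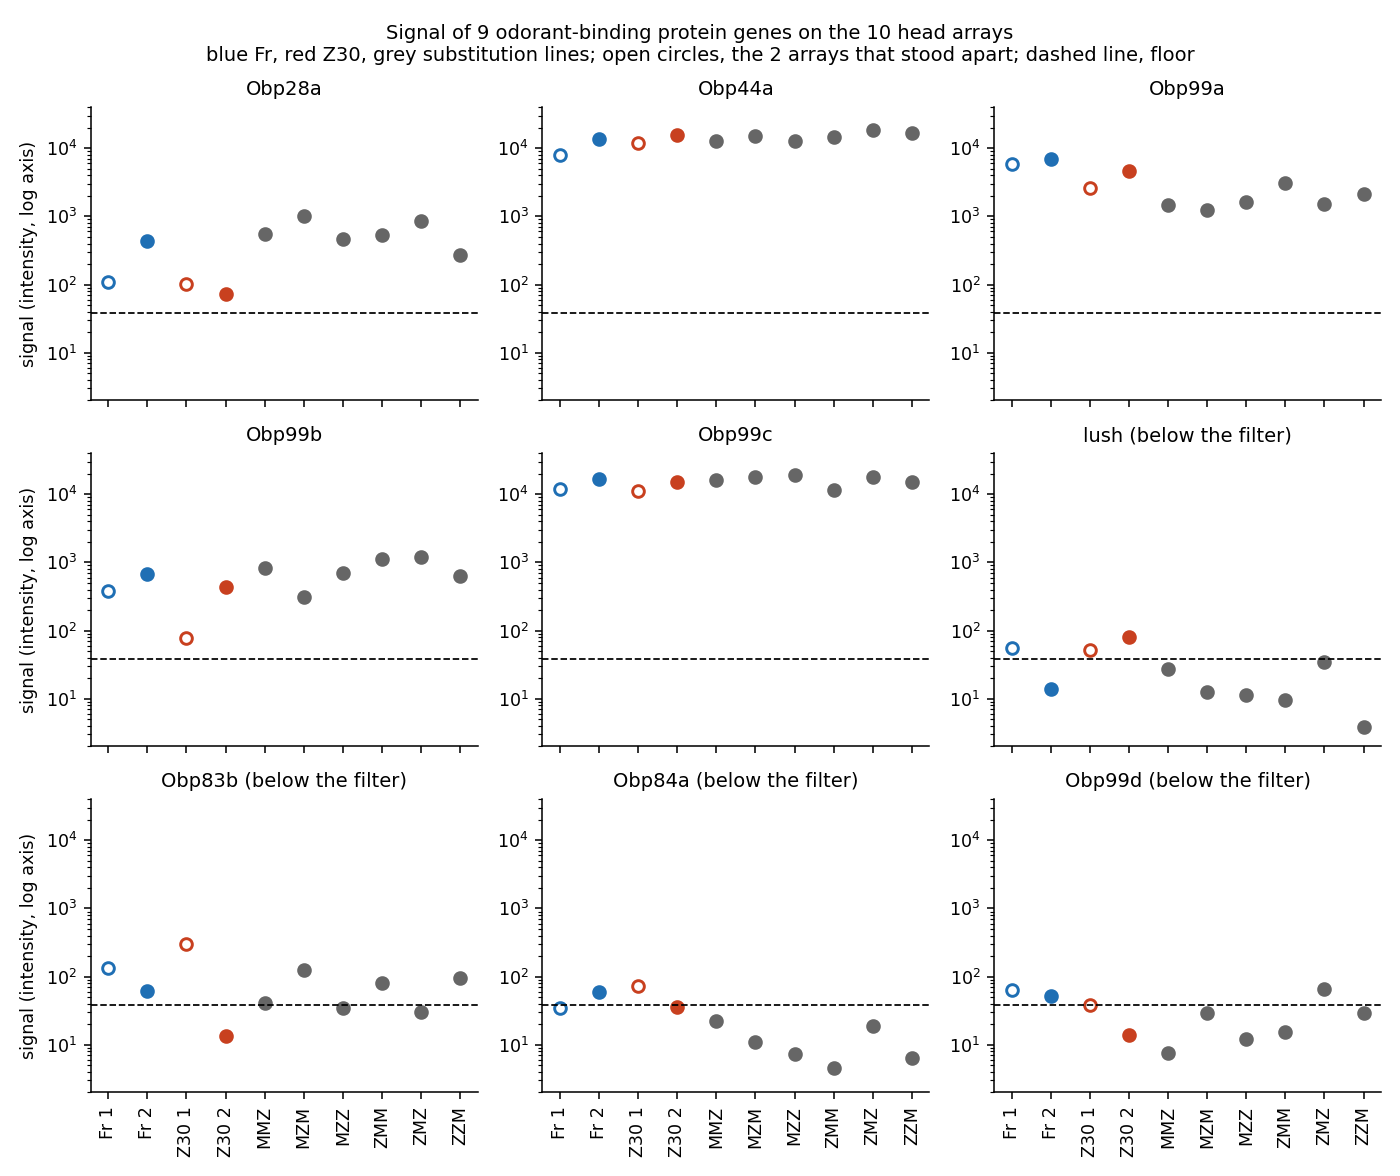
Signal of each of the 9 measured genes (log axis, intensity) on the 10 arrays, with Fr in blue, Z30 in red, the substitution lines in grey and the arrays Fr 1 and Z30 1 as open circles. Obp44a and Obp99c stayed in a narrow band on all arrays, Obp28a, Obp99a and Obp99b spread widely, and the 4 genes below the filter lay around the floor (dashed line at 38.9).

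None of the 5 tested genes differed between the parents or between origins of any chromosome at an adjusted p under 0.05 (limma, Benjamini-Hochberg over 8379 probe sets). This is the count in 20 tests of 5 genes against 4 comparisons, of which 1 had an unadjusted p under 0.05. The background was as sparse: 0.0358% of all tested probe sets passed for the parents, 0.0597% for the X, 0.0358% for the second and 0.0955% for the third chromosome. With the array batch as a block, 6.58% passed for the parents, and Obp99a and Obp99b were among them, both lower in Z30. In that parental fit the spread was taken from a trend of variance with signal across all probe sets, not from a gene's own arrays. With that block, 0.107% passed for the X, 0.155% for the second and 0.406% for the third chromosome, none of them a member.

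Obp44a and Obp99c varied less across the 10 arrays than most probe sets. Their SD of log2 signal over all arrays was 0.33 and 0.29, where the 8379 tested probe sets had a median of 0.43 and quartiles of 0.31 and 0.61. For Obp44a the signals were 7937 and 13652 in Fr and 11809 and 15570 in Z30. The lines gave 12752 in MMZ, 15244 in MZM, 12820 in MZZ, 14545 in ZMM, 18257 in ZMZ and 16631 in ZZM. The groups overlapped for each chromosome, and Fr 1 was the lowest array.

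The parental difference of Obp44a was 0.38 ± 0.36 log2 (SE), Z30 over Fr, with a 95% confidence interval of -0.48 to 1.24 and an adjusted p of 0.9998 by limma. The pair values were 0.57 for the first arrays and 0.19 for the second, and with the block the adjusted p was 0.0757. Obp44a lies on the second chromosome, and the origin of that chromosome moved it by 0.08 ± 0.22 (95% interval -0.41 to 0.57). The X from Z30 gave the largest of its 3 values, 0.30 ± 0.22, with an adjusted p of 0.9993 and, with the block, 0.897. A doubling by any single chromosome lay outside these intervals for Obp44a.

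Obp99c gave 12099 and 16587 in Fr and 11000 and 15325 in Z30. Its signal was 16221 in MMZ, 18174 in MZM, 19239 in MZZ, 11613 in ZMM, 17889 in ZMZ and 15177 in ZZM. The parents overlapped almost fully, and in each strain the array that stood apart was the lower. The parental difference was -0.13 ± 0.33 log2, with a 95% interval of -0.91 to 0.66. For its own chromosome, the third, the difference was 0.14 ± 0.20 (95% interval -0.30 to 0.59). The X from Z30 gave -0.27 ± 0.20. The block brought the unadjusted p of this value to 0.0469 and its adjusted p to 0.897 (limma), which is not a call.

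Obp99a had more signal in the Fr arrays than in any other sample. It was 5918 and 7028 in Fr, a mean of 6473 ± 785 (SD, n = 2), and 2596 and 4633 in Z30, a mean of 3615 ± 1440 (SD, n = 2). The lines lay lower still, with 1476 in MMZ, 1226 in MZM, 1640 in MZZ, 3138 in ZMM, 1507 in ZMZ and 2160 in ZZM. The parents did not overlap with each other, which was true of 28.5% of the tested probe sets, and of 2 of the 5 tested members, Obp28a and Obp99a. ZMM was the only line that reached into the parental range.

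On the fitted scale Obp99a was 1.86-fold lower in Z30 than in Fr, a log2 difference of -0.89 ± 0.35 with a 95% interval of -1.73 to -0.06. The unadjusted p was 0.0383 and the adjusted p 0.9998 (limma). Both pairs had the same sign, with -1.19 between the first arrays and -0.60 between the second. Once the array batch was blocked, the standard error fell to 0.18 and the adjusted p was 7.855e-05. With 1 residual degree of freedom, the spread in that fit comes from the trend across all probe sets alone, and the gene's own spread has no part in it. Without the trend, a setting added after the data were seen, the blocked adjusted p was 0.246.

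No chromosome's origin gave a called difference in Obp99a. The third chromosome, its own, gave -0.55 ± 0.50 (95% interval -1.66 to 0.56), the second -0.42 ± 0.50 and the X 0.19 ± 0.50. On arrays with the third chromosome from Fr the mean was 3894 ± 2481 (SD, n = 5), and with that from Z30 it was 2370 ± 1346 (SD, n = 5). The groups overlapped, since MZM, with the third chromosome from Fr, had the lowest signal of all. The substitution lines averaged 1858 ± 699 (SD, n = 6), the 4 parental arrays 5044 ± 1903 (SD, n = 4). In 5 of 6 cases the line thus lay below all 4 parental arrays. The parental mean takes in Fr 1 and Z30 1, which stood apart, and the share of all probe sets with such a split is not given here. The 3 pairwise interactions of origins were tested together, after the data were seen, with limma's moderated F test: the unadjusted p was 0.00145 and the adjusted p 0.924, or 0.793 with the block. None of the 8379 probe sets (0.0%) passed that test, and 331 had an unadjusted p under 0.05.

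Obp99b, the gene known from the head fat body, varied more. Its signals were 385 and 664 in Fr, a mean of 525 ± 198 (SD, n = 2), and 77.2 and 433 in Z30, a mean of 255 ± 252 (SD, n = 2). The parents overlapped, and the array Z30 1 held the lowest signal of all 10. Z30 2 was 5.61-fold above Z30 1, although both are labelled as the same strain.

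The parental difference of Obp99b was -1.47 ± 0.80 log2, 2.76-fold lower in Z30, with a 95% interval of -3.36 to 0.42 and an adjusted p of 0.9998 (limma). The first pair gave -2.32 and the second -0.62. With the block the adjusted p was 0.00036, and without the trend, an added setting, 0.198. The value depended on Z30 1: without that array the difference was -0.22. Without Z30 2 it was -2.71, with an adjusted p of 0.0351, the only call of a member when single arrays were left out.

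In the lines, the signals of Obp99b did not overlap between origins of the second chromosome, while the gene itself lies on the third. With the second chromosome from Fr the signals were 835 in MMZ, 1131 in ZMM and 1216 in ZMZ. With that from Z30 they were 306 in MZM, 702 in MZZ and 630 in ZZM. These groups of 3 did not overlap, as was the case for 10.9% of the tested probe sets, and for 1 of the 5 tested members. Over all 10 arrays they overlapped, because Fr 1 and Fr 2 lay lower, and the fitted difference was -1.22 ± 0.60 (95% interval -2.55 to 0.11) with an unadjusted p of 0.068 and an adjusted p of 0.9999 (limma). With the block the unadjusted p was 0.00397 and the adjusted p 0.306. The origin of the third chromosome gave -0.02 ± 0.60 (95% interval -1.35 to 1.31) and the X 0.12 ± 0.60. These values depended on the arrays used. Fitted to the 6 lines alone, the second chromosome gave -0.55 ± 0.33, and the X and the third gave larger values, 0.79 ± 0.33 and 0.65 ± 0.33, none of them called (lowest adjusted p of 0.49, limma). Over 10 arrays, leaving out Z30 1 moved the value for the second from -1.22 to -0.77.

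**Figure D2:**
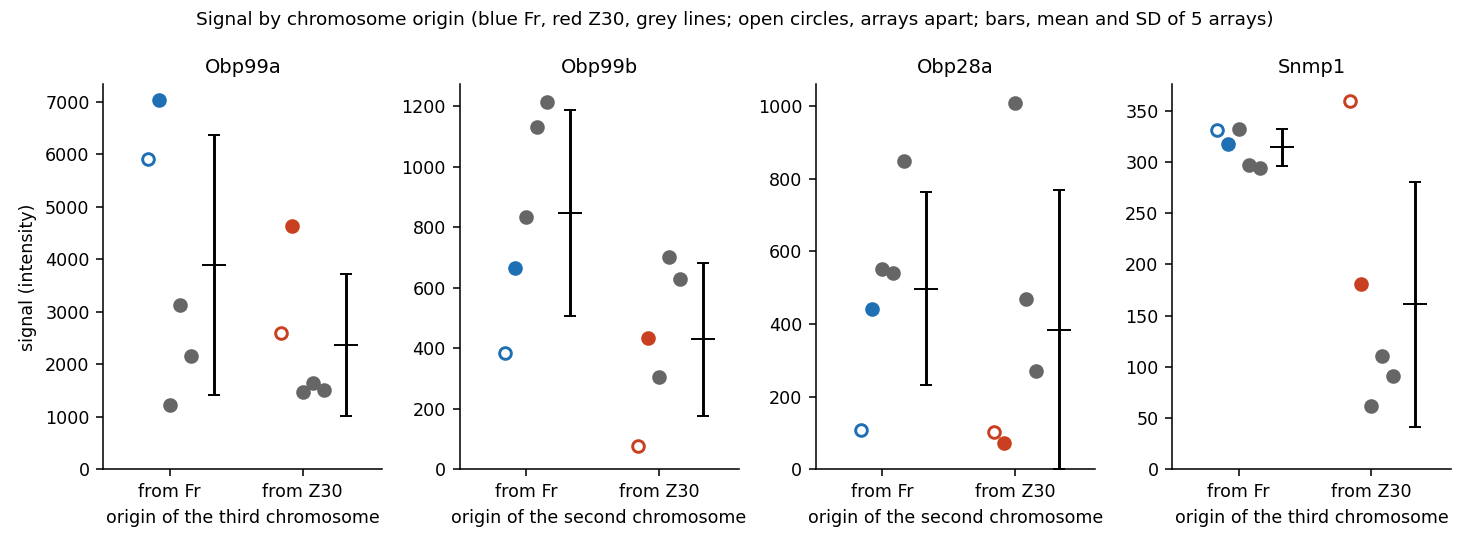
Signal (intensity, linear axis from 0) of Obp99a, Obp99b, Obp28a and Snmp1 on the 5 arrays with the named chromosome from Fr and the 5 with it from Z30, with bars for the mean and SD. The groups overlapped for all 4 genes, while in the lines alone (grey) Obp99b did not overlap between origins of the second chromosome, nor Snmp1 between origins of the third.

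Obp28a, which encodes the protein of basiconic sensilla, had an SD of log2 signal of 1.34 over the 10 arrays, where Obp99b had 1.16 and Obp99a 0.895. Its signals were 108 and 440 in Fr and 102 and 72.5 in Z30. Fr 2 was thus 4.07-fold above Fr 1. The lines lay above all 4 parental arrays in 5 of 6 cases, with 551 in MMZ, 1009 in MZM, 470 in MZZ, 539 in ZMM and 847 in ZMZ, while ZZM had 270.

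The parental difference of Obp28a was -1.34 ± 0.85 log2 (95% interval -3.36 to 0.68), and it came from 1 pair: the first arrays differed by -0.08 and the second by -2.60. Its adjusted p was 0.9998, and 0.111 with the block (limma). The second chromosome, where the gene lies, gave -0.57 ± 0.77, the X -0.60 ± 0.77 and the third -0.19 ± 0.77. The interaction test gave an unadjusted p of 0.00568 and an adjusted p of 0.924, or 0.853 with the block (limma), and the lines lay mostly above the strains. The substitution lines had a mean of 614 ± 268 (SD, n = 6) and the 4 parental arrays 181 ± 174 (SD, n = 4). Fr 2, at 440, lay within the range of the lines, 270 to 1009. The parental mean takes in Fr 1 and Z30 1, which stood apart, and the share of all probe sets with such a split is not given here.

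**Figure D3:**
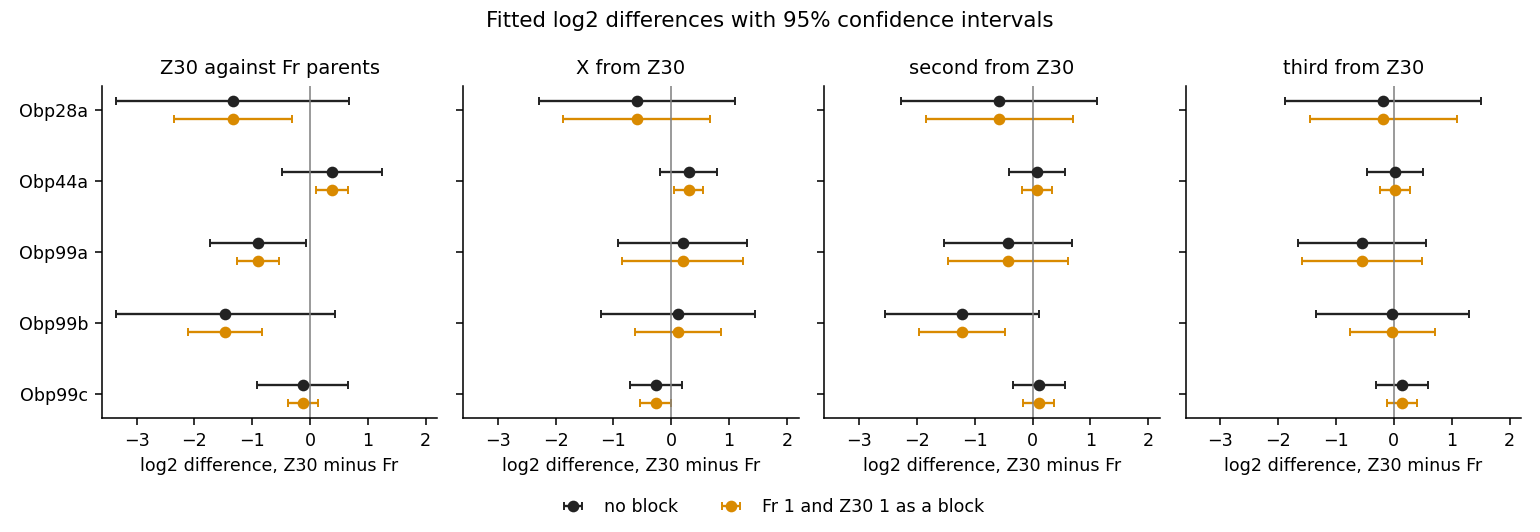
Fitted log2 differences (horizontal axis, Z30 minus Fr) of the 5 tested genes for the parents and for the origin of each chromosome, with 95% confidence intervals, without a block (black) and with Fr 1 and Z30 1 as a block (orange). The points are the same in both fits. The block narrows the intervals, most for the parents, where Obp99a (-0.89) and Obp99b (-1.47) were called lower in Z30 with the block alone. For the parents, the orange intervals take their spread from the trend across all probe sets alone.

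The 4 genes below the filter were lush, Obp83b and Obp84a, which are known from particular classes of antennal sensilla, and Obp99d. For lush the signal was above the floor on 3 of 10 arrays: 55.8 in Fr 1, 52.3 in Z30 1 and 81.7 in Z30 2. It was 13.7 in Fr 2 and between 3.9 and 34.2 in the lines, all under the floor. The receptor Or67d, its partner in pheromone detection, was above the floor on 2 of 10 arrays. For Obp84a only Fr 2 and Z30 1, at 60.2 and 73.8, were above the floor, and the lines gave 4.6 to 22.6. For Obp99d the arrays above it were Fr 1, Fr 2 and ZMZ, at 64.5, 51.4 and 66.2. Of these 3 genes, lush was above the floor on both Z30 arrays, and also on Fr 1. Obp99d was above it on both Fr arrays, and also on ZMZ. None was above it on all arrays with a given chromosome origin. The share of all dim probe sets with such a pattern is not given here.

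Obp83b was above the floor on 7 arrays. Its signals are given by the origin of the third chromosome, although a difference could not be tested with the filter in place. With the third chromosome, which carries it, from Fr, its signals were 133 in Fr 1, 61.8 in Fr 2, 123 in MZM, 79.2 in ZMM and 95.4 in ZZM, all above the floor. With that from Z30 they were 13.5 in Z30 2, 41.5 in MMZ, 34.5 in MZZ and 30.6 in ZMZ, but 301 in Z30 1. Only 2 of these 5 were above the floor. The groups overlapped, since Z30 1 held the highest signal of all. In the lines alone they did not overlap. That was true of 14.7% of the tested probe sets for the third chromosome, which do not include Obp83b. The share among dim probe sets is not given here. The log2 difference on the floored scale was -0.85 for the third chromosome. When the filter was left out, so that the gene could be tested, its adjusted p was 1 (limma). Between the parents it was 0.26, with 1.18 in the first pair and -0.67 in the second.

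The dim genes must be read beside the low end of the arrays that stood apart. The summed signal of 62 measured olfactory receptor genes, most of them dim, was 6183 in Fr 1 and 7123 in Z30 1, against 3196 to 4182 elsewhere, and 44 and 46 of them were above the floor there, against 28 to 33. The bright end was lower on the same arrays: the yolk protein gene Yp1 was at 26039 on Fr 1 and 28895 on Z30 1, and at 46285 or more elsewhere. Yp1 is the highest signal of each array, the same values as given above. The part of these shifts in the signals of lush, Obp83b, Obp84a, Obp44a and Obp99c was not tested.

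Other genes of olfactory sensilla were read on the same arrays. Snmp1, a membrane protein of pheromone-sensing neurons that lies on 3R, showed a like order by the origin of the third chromosome. It was 331 and 318 in Fr, 332 in MZM, 297 in ZMM and 295 in ZZM, a mean of 314 ± 18.0 (SD, n = 5). With the third chromosome from Z30 it was 360 and 181 in Z30, 62.2 in MMZ, 111 in MZZ and 91.3 in ZMZ, a mean of 161 ± 119 (SD, n = 5). As for Obp83b, Z30 1 was the exception. In the lines alone the groups did not overlap, as was true of 14.7% of the tested probe sets for the third chromosome. Its difference was -1.44 ± 0.38 log2 with an adjusted p of 0.423, and 0.0716 with the block (limma), neither of which is a call.

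The co-receptor Orco, also on 3R, was above the floor on 7 of 10 arrays and below the filter. Its mean was 99.7 ± 38.0 (SD, n = 5) with the third chromosome from Fr and 36.9 ± 12.5 (SD, n = 5) with it from Z30, and ZMM at 42.9 overlapped with Z30 2 at 50.8 and MMZ at 48.2. The secreted antennal protein gene a10 ranged from 109 in ZMM to 781 in Z30 1, and its parental difference was 0.44 ± 0.82 (adjusted p of 0.9998, limma). Jhedup, an esterase gene of the antenna, was 283 and 155 in Fr and 65.1 and 16.4 in Z30. Its parental difference was -2.05 ± 0.87 with an adjusted p of 0.9998, and 0.0335 with the block (limma). The signal in Z30 2 was under the floor, so the size of the second pair's difference is set by the floor. The blocked fit without the trend was not read for this gene.

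Among 42 other odorant-binding protein genes, 27 were measured and 12 were tested. None was called between the parents without the block. With it, 2 were higher in Z30, Obp56h by 2.06 and Obp56a by 1.57 log2, and 3 were lower, Obp18a by -1.42, Obp8a by -1.81 and Obp19b by -1.65. The median of the 12 tested genes was -0.06, and that of all tested probe sets was 0.02. Of all tested probe sets, 6.58% were called between the parents with the block. The spread in that fit came from the trend alone, and these genes were not read without it. For the origin of the X, Obp18a, an X-linked gene, gave -1.35 with an adjusted p of 0.0591, and 0.0153 with the block (limma). No other gene of the list was called for a chromosome in either fit. Of 71 olfactory receptor genes 62 were measured, 6 tested and 0 called. Of 14 transcription factor genes of olfactory organs 13 were measured, 11 tested and 0 called. Of 16 further genes of sensilla 13 were measured and 8 tested, and Jhedup was the only one called, with the block and for the parents.

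**Figure D4:**
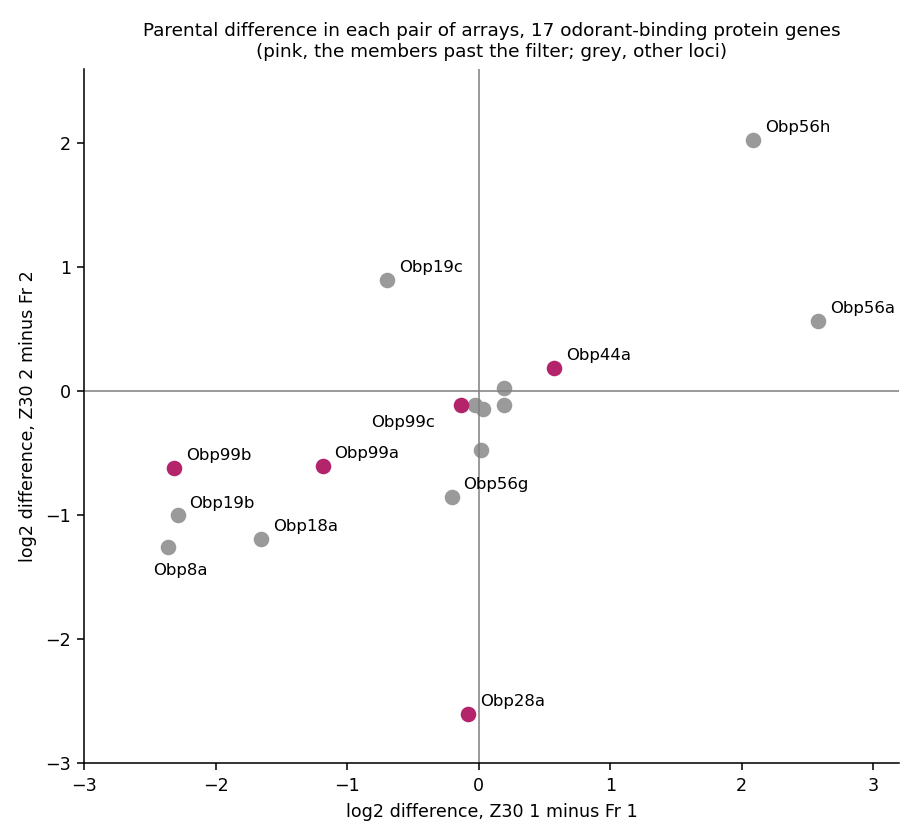
Parental log2 difference of 17 tested odorant-binding protein genes within the first pair of arrays (horizontal axis, Z30 1 minus Fr 1) and the second (vertical axis, Z30 2 minus Fr 2), with the 5 members in pink and the 12 other genes in grey. Obp99a and Obp99b were lower in Z30 in both pairs, Obp28a differed by -0.08 in the first pair and -2.60 in the second, and Obp56h was higher by 2.09 and 2.03.

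The genes whose pattern was most like that of each member were found by the correlation of floored log2 signals over the 10 arrays, as a description that shares the array batch among all genes. For Obp99b they were dpr4 and prom (Pearson r = 0.98 for both), and for Obp44a CG7739 (0.95) and CG8180 (0.92). For Obp99a they were CG32444 and CG10479 (0.91 each), for Obp28a danr and CG14277 (0.94 each), and for Obp99c GstD1 (0.94) and CG33177 (0.92). Dim members correlated most with Tsp86D and CG13086 (0.92 each, lush), nAChRbeta2 (0.95) and CG6675 (0.94, Obp83b), per (0.94) and mus302 (0.88, Obp84a), and Scgalpha (0.85) and zormin (0.84, Obp99d). Since lush, Obp84a and Obp99d were above the floor on 3, 2 and 3 arrays, their values rest on those few arrays. Each r is the highest found in a search of all tested genes outside the members. No other odorant-binding protein gene was among the genes found. Only 12 of them were in the search and 2 genes were kept per member, so their absence says little.

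Markers of other head tissues were present on every array. All 4 measured photoreceptor genes, all 7 glial and all 7 hemocyte genes were above the floor on all arrays, as were 7 of 8 fat body, 4 to 5 of 5 muscle and 3 to 5 of 5 neuronal genes. Of 7 genes of male flies 2 to 4 were above it, with a summed signal of 261 to 511. The summed neuronal signal was 1115 in Fr 1, 1552 in Z30 1 and 1175 in MZM, and 2331 to 3940 elsewhere. Obp99b was also lowest on these arrays, at 385, 77.2 and 306. On MZM the photoreceptor sum was the highest of all arrays, 98940. The summed fat body signal was 90000 in Fr 1 and 98843 in Z30 1 and 160714 to 189871 elsewhere. That sum includes Yp1, which is the highest signal by which Fr 1 and Z30 1 were set apart. It is therefore no separate observation, and less fat body RNA and a technical shift cannot be told apart. Beside the blocked calls of Obp99a and Obp99b, the fat body gene Lsp2 was also called lower in Z30 and the fat body gene fit higher. In the same fit 1 of 4 photoreceptor and 2 of 7 glial genes were called higher, and 1 of 4 muscle and 1 of 7 hemocyte genes lower. That fit called 6.58% of all tested probe sets, 551 in number, and 47 when the trend was left out. The lists were not read without the trend. The part of these tissues in the differences of Obp99a and Obp99b was not tested. Lsp2 was the only marker called without the block, at -4.28 log2 with the third chromosome from Z30 (adjusted p of 0.00639, limma).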

How the data were processed

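RNA was read on 10 oligonucleotide arrays with 14010 probe sets. What the authors deposited is a linear intensity, 1 per probe set and array, and their software is not given in the sources used here. A common scaling is visible (2% trimmed mean of 500.1 on every array). The number of arrays limits the precision.

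That scaling was left as it is. A floor was set at the pooled 20th percentile (38.9), and log2 was taken, which understates changes of dim genes. Without 44 control probe sets 13966 were left, and those with a mean above the 40th percentile, 8379, were tested. Of the 13966, 12443 had 1 gene, 327 several and 1196 none. Symbols of 12394 were updated through Entrez identifiers, and 49 were kept.

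limma 3.58.1 in R 4.3.3 (lmFit, eBayes with trend, Benjamini-Hochberg, threshold 0.05) compared the parents on 4 arrays (2 residual degrees of freedom) and the origins of the X, the second and the third chromosome in 1 additive model on 10 arrays (6 residual degrees of freedom). The code was tested on simulated data with independent noise and no array batch. That checks the code, not its power on these arrays. Alternatives were another scaling, floor, filter, variance model or set of arrays, and a block.

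The members and lists were chosen with earlier results of these data known. Genes outside the 10 were named by rule: the 2 most correlated with each member, Orco, Snmp1, a10 and Jhedup, and up to 4 called genes per olfactory list and comparison. Obp19b, Or67d, Yp1, Lsp2 and fit are named outside it, chosen after their values were seen. Each measured member had 1 probe set.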

Additional observations from a re-analysis of the deposited data

Results flagged for a closer look

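In groups of 5 arrays that share the origin of a chromosome, the member signals on the floored log2 scale were examined for a single array far from the others by Dixon's criterion. It was met in 14 of 53 groups, but in 11 of them every other array was at the floor, so that any lone array above the floor meets the criterion by construction. The other 3 concern Obp44a and Obp83b. Chance gives about 1 in 20 groups, and the groups share arrays. On the deposited signals without a floor, an alternative added after the data were seen, 3 of 54 groups met it, and 2 of those were among the 14.

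Fr 1 was the lowest array for Obp44a, at 7937, where the others lay at 12752 to 15244 (the X from Fr) and 13652 to 16631 (the third from Fr), and did not meet the criterion without the log scale. Z30 1 was the highest array with the third chromosome from Z30 for Obp83b, at 301 against 13.5 to 41.5, on both scales. The 11 groups set by the floor were those of lush, with Fr 1 at 55.8 in 3 groups, of Obp84a, with Fr 2 at 60.2 and Z30 1 at 73.8 in 3 groups each, and of Obp99d, with ZMZ at 66.2 in 2 groups. Of these, lush with the third chromosome from Fr, where the others reached 13.7, also met it without the floor. No array of Obp28a, Obp99a, Obp99b or Obp99c met the criterion on the floored log2 scale.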

How the results depend on the processing

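The count of called probe sets depended on the settings, that of called members hardly. The replicate block (Fr 1 and Z30 1, the array batch, against the rest) raised the calls for the parents from 3 to 551, and those for the X, the second and the third chromosome from 5, 3 and 8 to 9, 13 and 34. Without the trend, as an alternative added after the data were seen, the block gave 47, 0 (400 at an unadjusted p under 0.05, limma), 5 and 13. Called members of the parents were 2 with the replicate block and 0 in all other alternatives except without Z30 replicate 2, so 0 to 1 without single arrays. The labels do not say that the numbers pair arrays. With 2 pairs only, the deviations of same-numbered arrays correlated at 0.642.

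Without the filter the counts were 0 (646 at an unadjusted p under 0.05, limma), 2, 1 and 3. Without the trend they were 0 for the parents (311) and 0 for the X (212). For the X, median scaling gave 0 (200), 8 arrays without Fr 1 and Z30 1 gave 0 (275) and the 6 lines alone gave 0 (736). For the second, quantile normalization gave 7, 8 arrays 7 and 6 lines 0 (342). For the third, 6 lines gave 3. Leaving out single arrays gave 7 to 42 for the parents, 0 to 5, 2 to 6 and 3 to 9.

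Of 360 recomputed log2 differences of the 5 tested members 30 changed sign, none of them a call. Of 128 for the 4 untested members 16 changed sign, to between -1.22 and -0.0034; the parental difference of Obp83b, for example, was -0.30 with a floor at the 10th percentile. Obp44a for the third became -0.088 (median scaling) and -0.029 (8 arrays), Obp99b for the third 0.27 (8 arrays) and 0.65 (6 lines). Without single arrays Obp28a ranged from -1.20 to 0.011 (X), -1.39 to 0.22 (the second) and -0.78 to 0.43 (the third), Obp44a from -0.0098 to 0.77 (parents), -0.070 to 0.24 (the second) and -0.11 to 0.13 (the third), Obp99a from -0.23 to 0.52 (X) and -0.86 to 0.13 (the second), Obp99b from -0.21 to 0.71 (X) and -0.47 to 0.43 (the third), and Obp99c from -0.37 to 0.11 (parents) and -0.0009 to 0.24 (the third). The causes were not tested. The mean over a gene's probe sets gave no separate value, since each member had 1.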
